A study of Saccharomyces cerevisiae with 14 samples.

Results

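The 44 genes described here encode enzymes of histidine, arginine, lysine, tryptophan, threonine, isoleucine, serine, asparagine and glutamine synthesis in Saccharomyces cerevisiae, together with the shikimate enzymes and the activator Gcn4p. They were listed by ORF name and pathway. Of the 44, 41 had values in a table of 6040 yeast ORFs, and ARG7, LYS4 and HOM2 were not analysed here. The producer EPY330 carried the plasmid pESC-Leu2d with ADS, AMO and CPR, the plant genes of the artemisinic acid pathway. EPY338 carried the same plasmid with AMO-KO, in which a point mutation inactivates the AMO oxidase. Both strains derive from BY4742 (MATα his3Δ1 leu2Δ0 lys2Δ0 ura3Δ0) through EPY300, with galactose-driven tHMGR, upc2-1 and ERG20 and methionine-repressible ERG9, and in both strains lys2Δ0 and ura3Δ0 were repaired. Seed cultures grew in medium without leucine, histidine and methionine, and expression was then induced in YPG, a rich galactose medium. RNA of 5 clones per strain was pooled at 24, 48 and 72 h after induction, so the spread between clones was not measured.

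Each cDNA slide compared both strains directly, with EPY330 labeled with Alexa555 and EPY338 with Alexa647. The 24 h samples had 4 slides (A to D), and 48 h and 72 h had 5 each (A to E). The slides of a time point shared the same pair of RNA pools. All tests over slides therefore cover technical error only. All values below are log2(EPY330/EPY338) after lowess normalization by the authors, so a positive value means more signal in the producer. A value of 1 is a 2-fold difference. The ratios are averages over whole cultures, so fewer expressing cells and less RNA per cell cannot be told apart. The dyes were not swapped, so a dye effect of a gene and a difference between the strains cannot be told apart. The slides held 5466 to 5940 values each with medians of -0.0231 to 0.00881, and PDR5, a drug exporter gene read here as a known difference between the strains, read 1.43 to 3.54 on all 14 slides.

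The slides also fell into sets that cut across the time points. Clustering on the genes outside the list put 24 h A and C, 48 h A and B and 72 h D and E in a set that spans all times. The second set held 24 h B and D and 48 h C, D and E, and the third held 72 h A, B and C. Slides of the same time but different sets correlated at a median r of 0.593 over 16 pairs, compared with 0.71 over 18 pairs of the same set but different times (across genes, which are not independent replicates). The clustering used the correlations between these same slides, and the number of sets was a setting of the cut. The higher r within sets therefore follows in part from how the sets were made and is no test of them. The median of the listed genes lay at 0.0545 to 0.30 on the slides of the second set, at -0.38 to -0.23 on those of the third, and at -0.24 to 0.0165 on those of the spanning set. What separates the sets is not given in the sources used here. Values are therefore given slide by slide, and differences between time points are also given within the spanning set.

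Yeast can make all amino acids from a few carbon skeletons and ammonia. Aspartate feeds threonine, isoleucine and asparagine, glutamate feeds arginine and glutamine, and lysine is made from α-ketoglutarate by the fungal aminoadipate route. Gcn4p, a transcription factor of the bZIP family, activates most of these genes together under amino acid starvation, and its own level is set largely by translation. HIS3 and LYS2 are also common selection markers.

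Calls among the listed genes went in both directions. One-class SAM, which sets a gene's mean over its slides against all sign flips of the slides, was used at a false discovery rate of at most 0.2%. It called 3 of 41 genes higher in EPY330 at 24 h (CPA1, LYS2 and HOM6) and 1 lower (TRP4), where 11.4% of all 5861 genes tested were called higher and 5.43% lower. At 48 h it called 8 higher (HIS3, ARG1, CPA1, HOM6, SER1, SER3, GLN1 and GCN4) and 3 lower (ARG3, TRP3 and TRP4), against 12.4% higher and 9.98% lower of 5721 genes. At 72 h it called 2 higher (LYS2 and SER3) and 10 lower (among them HIS3, LYS12, LYS20, LYS21, TRP2, TRP4, TRP5, ARO3 and ASN1), against 12.7% higher and 8.49% lower of 5945 genes. The listed genes called lower at 72 h made up 24.4%. The 8 called higher at 48 h made up 19.5%, and the other counts were at 7.32% or below, each under the share over all genes. At 24 h their median lay at -0.0574 (all genes tested, -0.00661). It lay at 0.14 at 48 h (all genes, -0.0191) and at -0.25 at 72 h (all genes, -0.0151).

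Single slides carried much of these counts. At 72 h, 10 of the 12 calls were lost without A, without B or without C, leaving 1 higher and 1 lower each time, 7 were lost without D (1 higher and 4 lower remained) and 4 without E (1 higher). At 48 h, 8 of 11 were lost without C and 7 without D or without E, with 3 higher left in each case and 0, 1 and 1 lower. At 24 h, the lower call was lost without A or without D, and 6 genes were called higher without C. Most calls were also lost without the filling of gaps (missing values estimated from similar genes), although among the listed genes it touched only HIS2 and TRP3. Without filling, only HOM6 at 24 h, GLN1 at 48 h and LYS2 and LYS21 at 72 h were called. With only genes valued on every slide, HIS3, LYS12, TRP2, SER3 and ASN1 were among the genes that lost their 72 h calls. Removal of a trend along the ORF order (the median of ORFs neighbouring by name) ended the call of ARG3 at 48 h and those of HIS3, LYS12, LYS20, TRP4, TRP5 and ARO3 at 72 h.

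**Figure D1:**
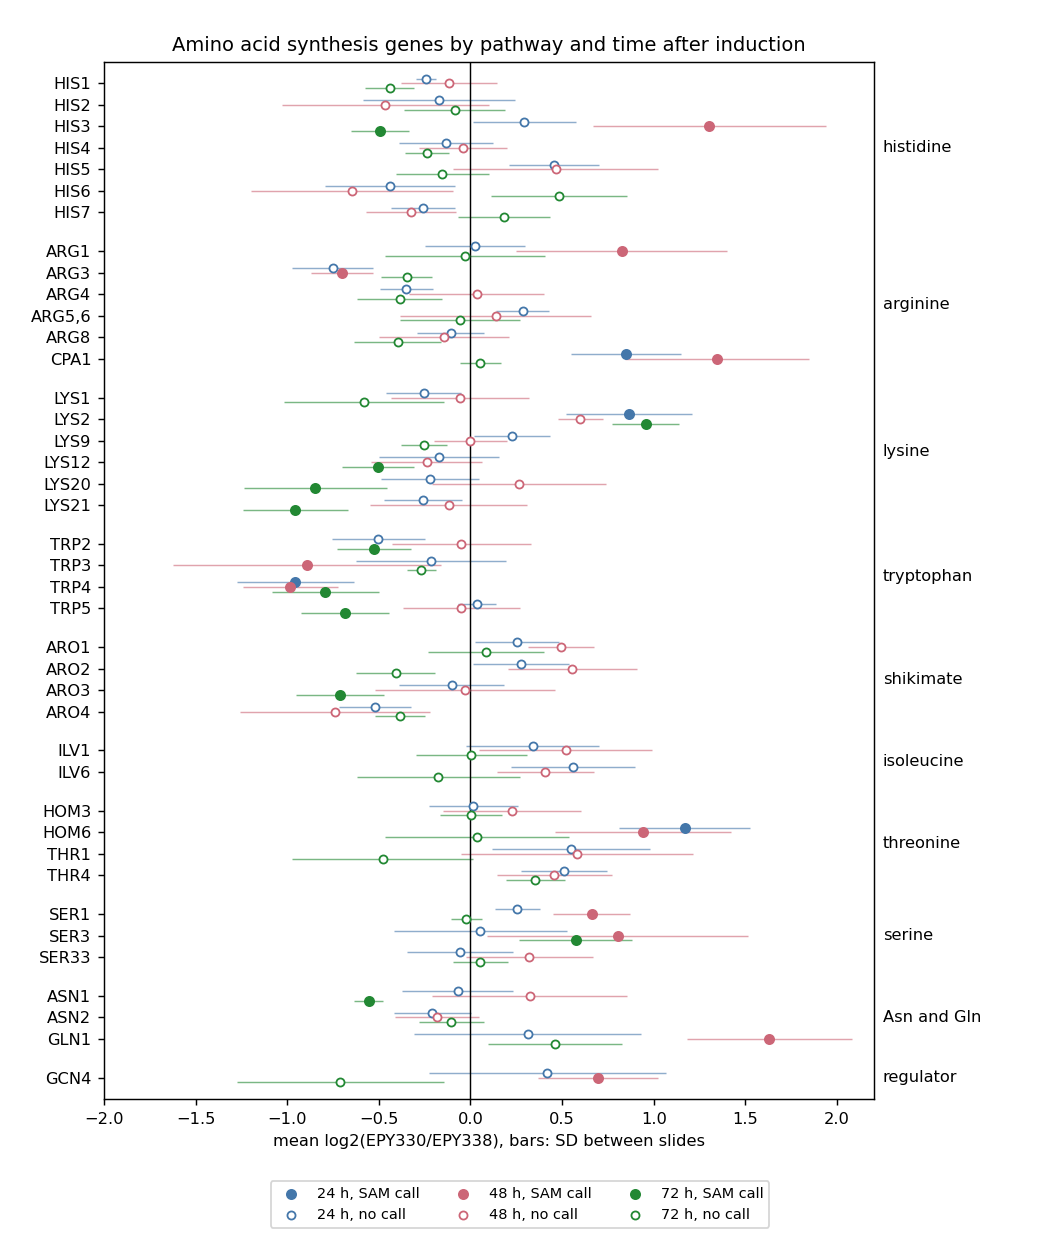
Mean log2(EPY330/EPY338) of the listed genes by pathway, with 1 point per time point (24, 48 and 72 h) and bars for the SD between slides; filled points were called by SAM at a false discovery rate of at most 0.2%. TRP4 lies left of 0 at all times, LYS2 lies right of 0 at all times, and HIS3 is called on opposite sides of 0 at 48 and 72 h.

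Of the 41 genes, 21 had no call at any time, 20 had at least 1, and only TRP4 was called at all 3 times. HIS3 was the only gene with calls in opposite directions. Mean differences above 2-fold were limited to HOM6 at 24 h and to HIS3, CPA1 and GLN1 at 48 h, all higher in EPY330, where 5.08% of all genes at 24 h and 5.75% at 48 h passed that level upwards. No listed gene passed it downwards at 24 h (1.84% of all genes) or 48 h (3.5%), and none passed it at 72 h, where 1.87% of all genes did so upwards and 0.69% downwards.

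In histidine synthesis, HIS3 was the only gene with a SAM call. HIS3 (YOR202W), imidazoleglycerol-phosphate dehydratase, read 0.21, 0.68, 0.0022 and 0.28 at 24 h, 0.94, 0.43, 1.38, 1.77 and 2.01 at 48 h and -0.63, -0.53, -0.64, -0.37 and -0.28 at 72 h. All 48 h slides were above 0 and all 72 h slides below it, and the time points did not overlap except for 48 h B, which lay within the range at 24 h. The means were 0.29 ± 0.28 (SD, n = 4), 1.30 ± 0.64 (n = 5) and -0.49 ± 0.16 (n = 5), and SAM called the gene higher at 48 h and lower at 72 h. The 48 h call was kept without any single slide but lost without filling of gaps. The 72 h call was lost without A, B, C or D (means of -0.52 to -0.455), without filling, with only genes valued on every slide and, at a mean of -0.31, with the ORF-order trend removed. Both strains are listed as his3Δ1, and which transcript the HIS3 spot detected was not tested.

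Of the other 6 histidine genes, none was called at any time by SAM at a false discovery rate of 0.2% over all slides. HIS1 (YER055C), ATP phosphoribosyltransferase of the first step, had the lowest mean over the time points in this pathway. It read -0.22, -0.24, -0.19 and -0.32 at 24 h, -0.059, -0.54, -0.11, -0.055 and 0.18 at 48 h and -0.56, -0.41, -0.35, -0.29 and -0.60 at 72 h, and was thus below 0 on all slides but 48 h E. HIS6 (YIL020C), the phosphoribosyl isomerase, lay between -0.79 and -0.12 at 24 h and 0.027 and 0.93 at 72 h, with means of -0.44 ± 0.35 (SD, n = 4) and 0.48 ± 0.37 (n = 5). At 48 h its slides A and B, of the spanning set, read -0.21 and 0.098, and C, D and E all lay near -1. HIS4, which encodes a multifunctional enzyme often used to report Gcn4p activity, averaged -0.13 ± 0.26, -0.042 ± 0.24 and -0.24 ± 0.12. HIS5 averaged 0.45 ± 0.25, 0.46 ± 0.56 and -0.15 ± 0.25, over all slides the same order of signs as HIS3. Within the spanning set HIS5 averaged 0.37, -0.11 and 0.042, so its signs at 48 and 72 h were the reverse. The means of HIS2 and HIS7 lay between -0.47 and 0.18.

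Among the arginine genes measured, CPA1 had the highest mean log2 ratio at 24, 48 and 72 h. CPA1 (YOR303W), the small subunit of the arginine-specific carbamoyl phosphate synthetase, read 0.75, 1.02, 0.47 and 1.15 at 24 h, 0.99, 0.65, 1.64, 1.61 and 1.83 at 48 h and 0.041, -0.052, -0.030, 0.083 and 0.23 at 72 h. All 24 and 48 h slides exceeded all 72 h slides. It averaged 0.85 ± 0.30 (SD, n = 4), 1.35 ± 0.50 (n = 5) and 0.0536 ± 0.11 (n = 5), and SAM called it at 24 h (not without D, 0.748) and at 48 h. CPA1 is known to be controlled by a leader peptide and by decay of its mRNA in response to arginine, whereas no value here bears on that control.

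ARG3 (YJL088W), ornithine carbamoyltransferase, was below 0 on all 14 slides. It read -0.46, -0.95, -0.70 and -0.90 at 24 h, -0.48, -0.76, -0.76, -0.92 and -0.59 at 48 h and -0.14, -0.30, -0.46, -0.37 and -0.48 at 72 h. Means were -0.75 ± 0.22 (SD, n = 4), -0.70 ± 0.17 (n = 5) and -0.35 ± 0.14 (n = 5). Only the 48 h value passed SAM at a false discovery rate of 0.2%. It did not pass without A, C, D or E (-0.76 to -0.646) or with the ORF-order trend removed (-0.39). ARG1, argininosuccinate synthetase, averaged 0.83 ± 0.58 at 48 h, where it was called, and 0.024 ± 0.27 and -0.028 ± 0.44 at 24 and 72 h. Its 48 h slides ranged from 0.22 to 1.74, and its call was lost without C, D or E. ARG4, ARG5,6 and ARG8, which encode the lyase and the acetylated-intermediate enzymes, had means between -0.40 and 0.28 and no call.

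LYS2 was the only lysine gene with a mean above 0 at 72 h and over the time points. LYS2 (YBR115C), α-aminoadipate reductase, read 1.08, 0.49, 1.22 and 0.67 at 24 h, 0.68, 0.62, 0.40, 0.71 and 0.59 at 48 h and 0.89, 1.05, 0.91, 0.72 and 1.21 at 72 h. It was higher in EPY330 on all 14 slides, at means of 0.87 ± 0.34 (SD, n = 4), 0.60 ± 0.12 (n = 5) and 0.96 ± 0.18 (n = 5). SAM called it at 24 h (not without A, 0.79) and at 72 h, and at 48 h only under some settings, among them without B. The LYS2 locus was restored by transformation in the background of both strains, and whether they share the same copy was not tested.

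LYS21 (YDL131W) and LYS20 (YDL182W), the homocitrate synthases that open the pathway, were called lower at 72 h. LYS21 read -0.41, -0.10, -0.47 and -0.054 at 24 h, -0.48, -0.68, 0.28, 0.13 and 0.15 at 48 h and -0.98, -1.31, -0.98, -0.51 and -1.004 at 72 h. At 48 h the sign split by slide set, with A and B below 0 and C, D and E above it. LYS21 averaged -0.96 ± 0.29 (SD, n = 5) at 72 h, the lowest mean of any listed gene at that time, and kept its call without any single slide. LYS20 averaged -0.22 ± 0.27, 0.27 ± 0.48 and -0.85 ± 0.39, and its 72 h call was lost without A, B or C. LYS20 lay above LYS21 on 10 of 14 slides, by 0.19 ± 0.41. LYS12, homoisocitrate dehydrogenase, was called at 72 h at -0.50 ± 0.20, a call lost without each of the 72 h slides in turn. LYS1 and LYS9, which encode the saccharopine dehydrogenases, were not called, with 72 h means of -0.58 ± 0.44 and -0.25 ± 0.13.

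The means of the tryptophan genes lay mostly below 0, 3 of 4 at 24 h and all 4 at 48 and at 72 h. Over all genes tested, 2958 of 5861 lay below 0 at 24 h, 2939 of 5721 at 48 h and 3053 of 5945 at 72 h. At 48 h TRP2 and TRP5 averaged -0.050 ± 0.38 and -0.050 ± 0.32, but their sign differed between the slide sets. TRP2 averaged -0.45 in the spanning set and 0.22 in the second set, and TRP5 -0.39 and 0.18. TRP4 (YDR354W), anthranilate phosphoribosyltransferase, read -0.99, -0.72, -1.40 and -0.72 at 24 h, -1.38, -1.09, -0.86, -0.81 and -0.76 at 48 h and -0.60, -0.94, -0.87, -0.41 and -1.15 at 72 h. It was below 0 on all 14 slides, and the ranges of the 3 time points overlapped. Its means were -0.96 ± 0.32 (SD, n = 4), -0.98 ± 0.26 (n = 5) and -0.79 ± 0.29 (n = 5). SAM called it at each time, at none of them without filling of gaps, and not at 24 h without A (-0.946) or D (-1.04), at 48 h without C (-1.01), or at 72 h without A, B or C (-0.84 to -0.757) or with the ORF-order trend removed (-0.37).

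TRP5 (YGL026C), tryptophan synthase, was close to 0 at 24 h, split in sign by slide set at 48 h and below 0 on all slides at 72 h. It read 0.070, -0.034, -0.062 and 0.17 at 24 h, -0.33, -0.46, 0.20, 0.13 and 0.22 at 48 h and -0.99, -0.69, -0.80, -0.59 and -0.35 at 72 h, so that only 48 h B and 72 h E overlapped across the last time points. Its 72 h mean of -0.68 ± 0.24 (SD, n = 5) was called, but not without A, B, C or D (-0.71 to -0.608) or with the trend removed (-0.56). TRP2 and TRP3, whose products form anthranilate synthase, were each called once. TRP2 was called at 72 h (-0.53 ± 0.20) and TRP3 at 48 h (-0.89 ± 0.73, slides from -1.95 to -0.22), and the first call was lost without each slide in turn, the second without B, C, D or E.

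In the shikimate pathway, which supplies chorismate to tryptophan, ARO3 was the only gene with a SAM call, lower at 72 h at -0.71 ± 0.24 (SD, n = 5, lost without A, B or C). ARO3 and ARO4 encode the feedback-inhibited DAHP synthases, and ARO3 lay above ARO4 on 4 of 4 slides at 24 h, 4 of 5 at 48 h and 1 of 5 at 72 h. ARO4 (YBR249C) read -0.57, -0.74, -0.51 and -0.26 at 24 h, -0.32, -0.71, -0.56, -1.63 and -0.48 at 48 h and -0.29, -0.38, -0.31, -0.33 and -0.63 at 72 h. It was below 0 on all 14 slides, with 48 h D far below the rest. ARO1 (YDR127W), the pentafunctional arom protein, had the highest mean over time of the pathway. It read 0.45, 0.33, 0.30 and -0.078 at 24 h, 0.49, 0.71, 0.24, 0.62 and 0.41 at 48 h and 0.026, 0.34, 0.48, -0.18 and -0.24 at 72 h, above 0 on all 48 h slides, with no call. ARO2, chorismate synthase, averaged 0.28 ± 0.26, 0.56 ± 0.35 and -0.41 ± 0.21, also with no call. With the ORF-order trend removed, however, SAM called ARO1 higher at 24 h (0.64) and 48 h (0.88). Limma then also called ARO1 over the time points (0.63, adjusted p = 0.0417). Without that removal, limma on the slides called ARO1 higher at 48 h.

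In the threonine branch, the means of HOM3, HOM6, THR1 and THR4 were all positive at 24 and 48 h. Only HOM6 was called by SAM, and HOM3 averaged 0.015 at 24 h. HOM6 (YJR139C), homoserine dehydrogenase, read 1.01, 1.36, 0.75 and 1.55 at 24 h, 0.30, 0.61, 1.49, 1.24 and 1.07 at 48 h and -0.25, -0.38, -0.23, 0.21 and 0.84 at 72 h. The 72 h slides of the spanning set (D and E) were above 0 and the other three below it. HOM6 averaged 1.17 ± 0.36 (SD, n = 4), 0.94 ± 0.48 (n = 5) and 0.036 ± 0.50 (n = 5). It was called at 24 h, also without any single slide, and at 48 h, though not without C (0.80), D (0.87) or E (0.91).

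HOM3 (YER052C), aspartate kinase, had the lowest mean of this branch over the time points. It read -0.15, -0.12, 0.37 and -0.051 at 24 h, 0.12, 0.86, 0.14, 0.18 and -0.16 at 48 h and -0.23, 0.061, 0.17, 0.12 and -0.11 at 72 h, scattered around 0 with no call. THR4, threonine synthase, was above 0 on all 14 slides (0.045 to 0.81), with means of 0.51 ± 0.24, 0.46 ± 0.32 and 0.35 ± 0.16 and no SAM call. THR1, homoserine kinase, averaged 0.55 ± 0.43, 0.58 ± 0.63 and -0.48 ± 0.50, and was not called.

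Of the isoleucine genes neither was called by SAM at a false discovery rate of 0.2% over all slides. ILV1 (YER086W), threonine deaminase, read 0.21, 0.25, 0.87 and 0.035 at 24 h, 0.47, 1.29, 0.019, 0.52 and 0.30 at 48 h and -0.088, 0.15, -0.38, -0.095 and 0.43 at 72 h. All slides at 24 and 48 h were above 0. ILV6 (YCL009C), the regulatory subunit of acetolactate synthase, read 0.67, 0.66, 0.070 and 0.85 at 24 h, 0.24, 0.12, 0.82, 0.47 and 0.39 at 48 h and -0.19, -0.68, -0.55, 0.29 and 0.25 at 72 h. Its negative values were confined to 72 h A, B and C, the slides of the third set.

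The serine genes include a pair of isozymes. Whether spots of isozyme genes bind both transcripts was not tested, here or for the pairs above. SER3 (YER081W), 3-phosphoglycerate dehydrogenase, read 0.014, 0.30, -0.59 and 0.49 at 24 h, 0.55, -0.32, 1.49, 1.07 and 1.21 at 48 h and 0.16, 0.50, 0.49, 0.75 and 0.97 at 72 h, with only 24 h C and 48 h B below 0. Its means were 0.052 ± 0.47 (SD, n = 4), 0.80 ± 0.71 (n = 5) and 0.57 ± 0.31 (n = 5). It was called at 48 h, except without A, C, D or E (0.63 to 0.87), and at 72 h, a call lost without each of the slides in turn (0.47 to 0.68). Its isozyme SER33 (YIL074C) read -0.24, -0.12, 0.37 and -0.24 at 24 h, -0.12, 0.83, 0.39, 0.21 and 0.29 at 48 h and 0.15, -0.16, -0.046, 0.14 and 0.18 at 72 h, with no call. SER3 exceeded SER33 on 12 of 14 slides by 0.39 ± 0.67, and the exceptions were 24 h C and 48 h B, the slides on which SER3 was negative. SER1, the aminotransferase of the next step, was called at 48 h at 0.66 ± 0.21, a call lost without C, D or E.

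GLN1 (YPR035W), glutamine synthetase, had the highest mean of all listed genes at any time. It read 0.82, 0.67, -0.56 and 0.31 at 24 h, 1.89, 0.83, 1.78, 1.83 and 1.83 at 48 h and 0.13, 0.23, 0.24, 0.74 and 0.96 at 72 h. The 48 h values except B exceeded all others, and B lay just above 24 h A and within the range at 72 h. The means were 0.31 ± 0.62 (SD, n = 4), 1.63 ± 0.45 (n = 5) and 0.46 ± 0.37 (n = 5), and the 48 h call was kept without any single slide. ASN1 and ASN2 encode asparagine synthetases. ASN1 was called lower at 72 h, where its slides lay within -0.69 to -0.51 (mean -0.56 ± 0.077), a call lost without A, B, C or D. ASN2 (YGR124W) read -0.32, -0.26, 0.10 and -0.35 at 24 h, -0.24, 0.22, -0.34, -0.27 and -0.30 at 48 h and 0.029, 0.065, -0.091, -0.14 and -0.38 at 72 h, with no call, and it exceeded ASN1 on 5 of 5 slides at 72 h.

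GCN4 (YEL009C) lay on opposite sides of 0 at 48 and 72 h. It read 0.49, 0.87, -0.52 and 0.83 at 24 h, 0.23, 0.51, 1.04, 0.88 and 0.82 at 48 h and -1.23, -1.30, -0.71, -0.24 and -0.062 at 72 h. All 48 h slides were above 0 and all 72 h slides below it, and at both times the slides of the spanning set lay nearest to 0. Means were 0.42 ± 0.65 (SD, n = 4), 0.69 ± 0.33 (n = 5) and -0.71 ± 0.56 (n = 5). SAM called the 48 h value higher, except without C (0.61), D (0.65) or E (0.66). The 72 h value was called lower without E (-0.87), at a false discovery rate of 1% and by limma on the slides, and the 24 h value was called higher without C (0.73). Other genes gained calls in the same way. At 72 h, a rate of 1% also called HIS1, ARG3 and ARO4 lower and GLN1 higher, and limma called HIS1 and ARG3 lower. At 24 h, ILV6 was also called higher without C (0.72). The arrays measure GCN4 mRNA and not Gcn4p.

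**Figure D2:**
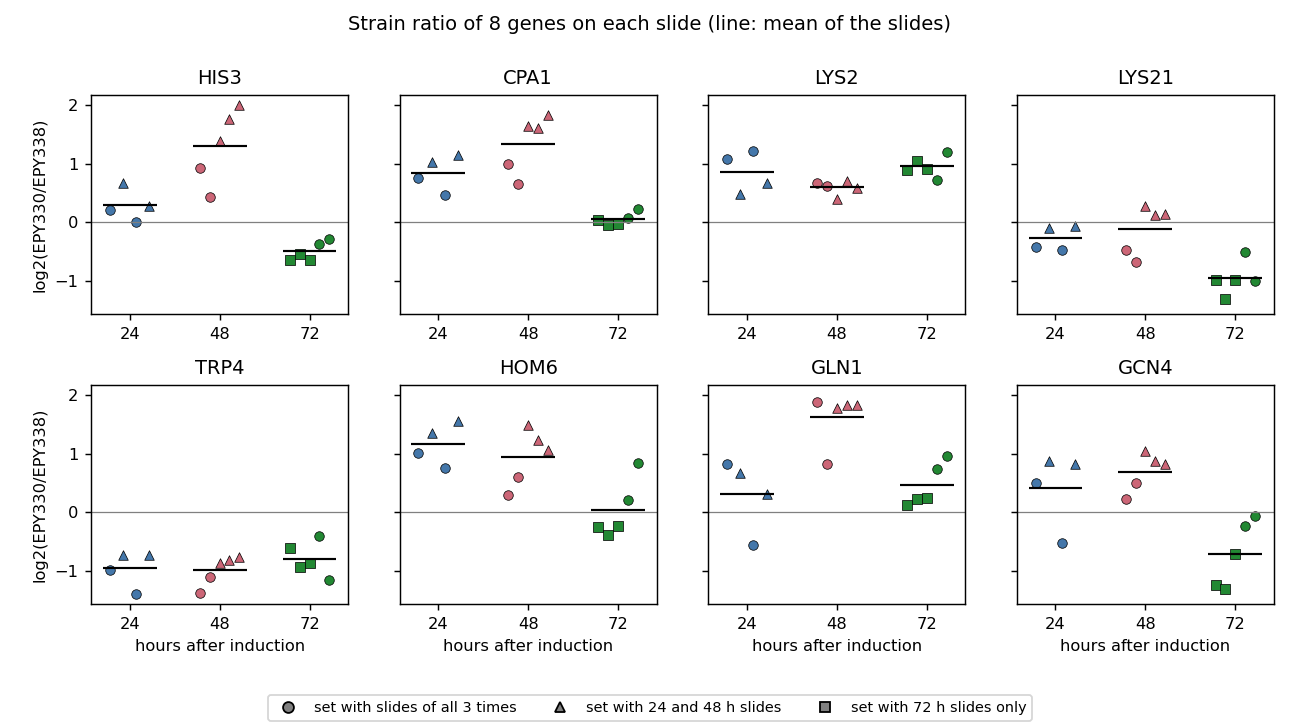
log2(EPY330/EPY338) of 8 genes on each of the 14 slides by hours after induction; lines are means of the slides of a time point, and symbols mark the slide sets found by clustering. LYS2 and TRP4 keep their sign on all slides. Among the 72 h slides those of the third set (squares) lie lowest for HIS3, CPA1, HOM6, GLN1 and GCN4.

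Across the 3 time points, with 1 value per time point, limma called LYS2 higher and TRP4, ARG3 and ARO4 lower among the 41 genes, where 11.5% of 5652 genes were called higher and 9.85% lower. The methods name 5 transformants per strain for all 3 times, so the 3 values are repeated measures and not independent replicates. The adjusted p-values here do not cover differences between clones or a dye effect. LYS2 averaged 0.81 (adjusted p = 0.0254, higher on 14 of 14 slides). TRP4 averaged -0.91 (adjusted p = 0.0238), ARG3 -0.60 (adjusted p = 0.0368) and ARO4 -0.55 (adjusted p = 0.0394), each lower on 14 of 14 slides. Next in order were THR4 at 0.44 (adjusted p = 0.0509), HOM6 at 0.72 (0.0761), CPA1 at 0.75 (0.0788) and GLN1 at 0.80 (0.0817), which did not pass the threshold. The calls of LYS2 and TRP4 were kept without any single slide. ARG3 was lost without 48 h B (-0.595, adjusted p = 0.0502) or 72 h E (-0.589, 0.0606), and ARO4 without 48 h B (-0.551, 0.0544), 72 h D (-0.554, 0.0504) or 72 h E (-0.529, 0.067). With medians of the slides in place of means, ARG3 (-0.64, adjusted p = 0.0598) and ARO4 (-0.47, 0.0751) were both lost. Removal of the ORF-order trend also ended the call of ARG3 (-0.42, adjusted p = 0.0692). LYS2 was also lost when the 24 h time point was left out (0.78, adjusted p = 0.068), and ARG3 and ARO4 when 24 h or 48 h was left out. Without 24 h B or D, 48 h C, D or E or 72 h A or C, 2 genes were called higher, and 3 without 72 h B.

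Differences between time points depended on the slide sets. Over all slides 1 listed gene was called for 48 h minus 24 h, 16 for 72 h minus 48 h and 9 for 72 h minus 24 h, whereas with the slide set as a block there were 2, 1 and 0. From 24 to 48 h, limma on all slides called only GLN1, by 1.32 ± 0.28 (SE, adjusted p = 0.0267), where 0.619% of 5652 genes were called upwards and 0.372% downwards. Its difference within the spanning set was 1.23. The call was lost without 24 h C (1.03, adjusted p = 0.0982) or D, without 48 h A, C, D or E (1.26 to 1.28), and with only the compared time points (adjusted p = 0.103). HIS3 had a difference of 1.01 ± 0.26 (adjusted p = 0.0893). Without 48 h B, 3 genes were called, HIS3 (1.23, adjusted p = 0.00396) and SER3 (1.03, 0.039) beside GLN1.

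For 72 h minus 48 h, 14 of the 41 genes were called lower and 2 higher, where 16.3% of all genes were called lower and 13.9% higher. The largest was HIS3, at -1.80 ± 0.24 (SE, adjusted p = 0.000438). GCN4 differed by -1.40 ± 0.29 (adjusted p = 0.003), CPA1 by -1.29 ± 0.21 (0.00127), GLN1 by -1.17 ± 0.27 (0.0057) and LYS20 by -1.11 ± 0.23 (0.00347). THR1, ARO2, HOM6, ASN1, ARG1, LYS21, SER1, ARO3 and TRP5 followed at -1.06 to -0.63. The genes called higher were HIS6, by 1.13 ± 0.25 (adjusted p = 0.00509), and HIS7, by 0.51 ± 0.17 (0.0312). For 72 h minus 24 h, 8 were called lower (CPA1, LYS21, TRP5, ARO2, ILV6, HOM6, THR1 and GCN4, at -1.13 to -0.68) and HIS6 higher (0.92), where 9.16% of all genes were called lower and 5.17% higher. All 9 calls of that comparison were lost without 24 h B, without 24 h D or without 72 h B, 8 without 72 h A or C, and 13 genes were called lower without 48 h B and 2 higher without 72 h E. HIS7 and ARO3 lost their 72 h minus 48 h calls without 48 h C, D or E or 72 h A, B or C, and ARG1 without 72 h A, B or C.

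These differences were smaller within the spanning set, which holds a pair of slides at each time. The slides of this set are also part of the values over all slides, so a kept sign is partly built in. Genes called for a large difference over all slides can also be smaller in a subset for that reason alone. For 72 h minus 48 h, 13 of the 16 called genes kept their sign within the set and ARO3, HOM6 and THR1 did not. The 14 genes called lower had a median of -0.94 over all slides and -0.51 within the set. HIS3 differed by -1.01 within the set, LYS20 by -0.80, ARO2 by -0.68, CPA1 by -0.67, GCN4 by -0.52 and GLN1 by -0.51, whereas HIS6 differed by 0.16 and HOM6 by 0.067. The median of all 41 genes was -0.41 over all slides and -0.0766 within the set. For 72 h minus 24 h, all 9 called genes kept their sign, and the genes called lower had a median of -0.77 over all slides and -0.32 within the set. With the slide set as a block in limma, only HIS3 remained called for 72 h minus 48 h (-1.19, adjusted p = 0.0374), no listed gene was called for 72 h minus 24 h, and HIS3 (0.94, adjusted p = 0.0112) and GLN1 (1.28, 0.0116) were called for 48 h minus 24 h. Time could be compared within a set only through the spanning set and, for 24 and 48 h, the second set, since 72 h A, B and C form a set of their own.

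**Figure D3:**
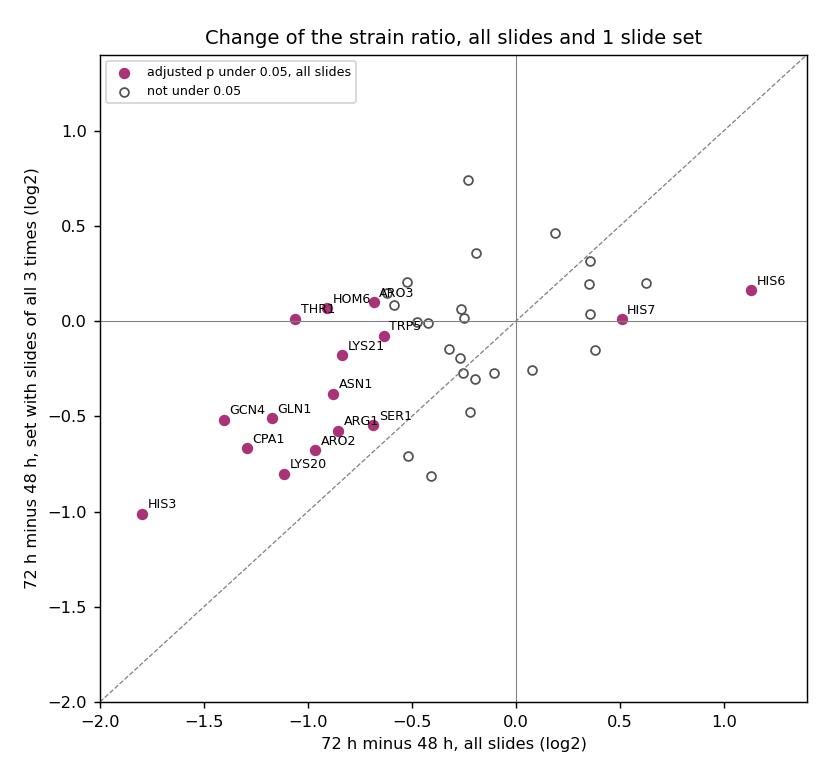
Difference of the mean log2(EPY330/EPY338) between 72 and 48 h for the listed genes, over all slides (x axis) and within the slide set that spans all times (y axis); filled points had a limma adjusted p under 0.05 over all slides, and the dashed line marks equal values. All 14 genes called lower lie above the dashed line, with HIS3 lowest on both axes.

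Other genes of amino acid metabolism were called at or below the shares of all genes, except for lower calls at 48 and 72 h. Of 32 further genes listed (enzymes, regulators, and genes of uptake and breakdown), 30 had values. SAM called 1 higher and 1 lower of 29 at 24 h (3.45% each, against 11.4% and 5.43% of all genes). At 48 h it called 2 higher and 3 lower of 29 (6.9% and 10.3%, against 12.4% and 9.98%), and at 72 h 2 higher and 6 lower of 30 (6.67% and 20%, against 12.7% and 8.49%). LYP1, the lysine permease, was called higher at 24 h (1.14 ± 0.30, SD, n = 4) and 48 h (1.03 ± 0.61, n = 5) and over the time points (0.83, adjusted p = 0.037), with 0.31 ± 0.24 at 72 h. CHA1, the catabolic serine and threonine deaminase, was called lower at 24 h (-1.11 ± 0.31, n = 3) and 48 h (-1.25 ± 0.24, n = 5). LYS14, the activator of the lysine genes, was called lower at 72 h (-0.67 ± 0.14) and over the time points (-0.62, adjusted p = 0.0288), as was PRO1, γ-glutamyl kinase of proline synthesis (-0.78 ± 0.31 and -0.57, adjusted p = 0.0379). GDH1, the NADP-dependent glutamate dehydrogenase, was called higher at 48 h (0.87 ± 0.40) and lower at 72 h (-0.63 ± 0.29), the same order of calls as HIS3. ARG2, acetylglutamate synthase, and BAS1, an activator of histidine and purine genes, were called lower at 48 h at -0.79 ± 0.29 and -0.72 ± 0.26. At 72 h, ARO8, CAN1 and CAR1 were also called lower, and TYR1 and CAR2 higher. How the calls of these further genes depend on single slides, filling of gaps or slide sets is not given here.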

How the data were processed

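Per the labels and the study's methods, the deposited values are log2 ratios of EPY338 over EPY330, 1 per ORF and slide, made by the authors from GenePix Pro 6.1 intensities after removal of aberrant and weak spots and lowess normalization in BRB-ArrayTools 3.5.0. No intensities were used here, so signal over background was not assessed, and precision is limited by how many slides there were. Signs were flipped to give log2(EPY330/EPY338). SAM ran per time point over all sign flips (16 or 32) for genes with at least 3 slides, with gaps filled from the 10 nearest genes. Filling touched 2 listed genes, HIS2 and TRP3. Tests in limma 3.58.1 (R 4.3.3, two-sided, Benjamini-Hochberg, adjusted p under 0.05) covered the mean over time points and the differences between time points. Scripts also used Python 3.11.15, and procedures were tested on simulated data. The genes and lists were chosen with earlier results of these data known. Slides are given one by one for HIS3, LYS2 and GCN4, for the highest and lowest gene of each pathway over time, and for means above 1 or below -1. The slide sets and leaving out time points were added after the data were seen. Promoter motifs and isozyme identity were not run, since no sequences were used. Of the listed genes, 1 entered the counts but is not reported here by name or value.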

Additional observations from a re-analysis of the deposited data

Results flagged for a closer look

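In 3 cases, 1 slide stood apart from the others of their time point, among 57 groups of 4 or 5 slides examined, where chance gives about 1 in 20. ARO4 on 72 h E read -0.63, where the others lay at -0.38 to -0.29. ASN2 on 48 h B read 0.22, where the others lay at -0.34 to -0.24. GLN1 on 48 h B read 0.83, where the others lay at 1.78 to 1.89.

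Among the genes given slide by slide, the ratio of 8 differed between time points by limma's test of the difference itself. For 48 h minus 24 h, GLN1 differed by 1.32 (adjusted p = 0.0267). For 72 h minus 48 h, HIS3 differed by -1.80 (0.000438), CPA1 by -1.29 (0.00127), LYS21 by -0.84 (0.0082), TRP5 by -0.63 (0.0135), HOM6 by -0.91 (0.0165), GLN1 by -1.17 (0.0057) and GCN4 by -1.40 (0.003). For 72 h minus 24 h, CPA1 differed by -0.79 (0.0301), LYS21 by -0.70 (0.0425), TRP5 by -0.72 (0.0199), ILV6 by -0.74 (0.0422), HOM6 by -1.13 (0.0161) and GCN4 by -1.13 (0.0237). The share of slides from each set differed between the time points in all of these comparisons. With the set as a block, GLN1 kept its call for 48 h minus 24 h (1.28, adjusted p = 0.0116) and HIS3 that for 72 h minus 48 h (-1.19, 0.0374). The other 72 h minus 48 h calls were lost, for CPA1 (adjusted p = 0.0685), LYS21 (0.585), TRP5 (0.676), GLN1 (0.539), GCN4 (0.528) and HOM6, whose difference was then 0.0040 (0.995). All 6 calls for 72 h minus 24 h were lost, at adjusted p of 0.676 to 0.949.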

How the results depend on the processing

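The counts of listed genes called depended on how gaps were treated and on the test. The counts over all genes moved as well, over the alternatives from 415 to 1224 higher at 24 h and from 3 to 1429 lower at 48 h. Shares over all genes are not given setting by setting, so the counts below are not results about the listed genes alone. Without filling, SAM called 1 higher and 0 lower at 24 h, 1 and 0 at 48 h, and 1 and 1 at 72 h. With limma on the slides, the counts were 5 and 4, 17 and 7, and 4 and 17. At a false discovery rate of 1%, 2 were lower at 24 h, 5 lower at 48 h, and 5 higher and 17 lower at 72 h. With only genes valued on every slide, 1 was higher and 5 lower at 72 h and 2 higher over the time points. With the ORF-order trend removed, 7 were higher at 24 h, 13 higher at 48 h, 6 lower at 72 h, 2 higher over the time points, 2 higher for 48 h minus 24 h and 1 higher for 72 h minus 48 h. Over the time points, centred slides gave 2 higher, slide medians 1 lower, an adjusted p under 0.01 gave 0 and 0, the spanning set gave 6 higher and 12 lower, leaving out 72 h gave 12 higher with a median of 0.11, and leaving out 24 h or 48 h gave 1 lower. With only the compared time points, 0 were higher for 48 h minus 24 h, 1 higher for 72 h minus 48 h and 14 lower for 72 h minus 24 h. With the slide set as a block, 2 were higher for 48 h minus 24 h, 0 higher and 1 lower for 72 h minus 48 h, and 0 and 0 for 72 h minus 24 h. With only the spanning set, all 3 differences gave 0 calls. HOM6 reversed for 72 h minus 48 h, at 0.0040 with the set block (adjusted p = 0.995) and 0.0672 in the spanning set (0.981), and the cause of these shifts was not tested.

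Leaving out single slides gave 2 to 6 higher and 0 to 1 lower at 24 h, 3 to 12 and 0 to 3 at 48 h, 1 to 2 and 1 to 10 at 72 h, and 1 to 3 and 1 to 4 over the time points. It gave 0 to 3 higher for 48 h minus 24 h, 1 to 3 higher and 12 to 19 lower for 72 h minus 48 h, and 0 to 2 higher and 0 to 13 lower for 72 h minus 24 h. The median stayed within -0.0574 to 0.0051 at 24 h, 0.0269 to 0.19 at 48 h, -0.28 to -0.22 at 72 h and -0.13 to -0.0231 over time.

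Replicate letters did not pair the slides (correlations of same-letter deviations of -0.532 to 0.639). With the letter as a replicate block, 0 were higher for 48 h minus 24 h and 2 higher for 72 h minus 24 h. It moved no other count of listed genes by over 1.5 times.

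Over all genes tested, 671 were called higher and 318 lower at 24 h, against 415 to 1224 and 5 to 1143 over the alternatives. At 48 h the counts of 707 and 571 stood against 127 to 1442 and 3 to 1429, and at 72 h those of 753 and 505 against 273 to 1133 and 61 to 978. Over the time points, 650 and 557 stood against 0 to 1478 and 0 to 1417. The 72 h minus 48 h counts of 788 and 921 stood against 0 to 1153 and 0 to 1227, for 72 h minus 24 h, 292 and 518 against 0 to 652 and 7 to 847, and for 48 h minus 24 h, 35 and 21 against 0 to 69 and 1 to 31. Of 2774 values of the genes given slide by slide under the alternatives, 2509 kept their direction and side of the threshold, 134 lost and 68 gained a call, 61 uncalled values moved, and 2 reversed. The 2509 include values at time points from which no slide was left out. Those values could not change, so the count overstates how stable the results were.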
